A study of Mus musculus with 16 samples.

Results

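Granzymes are serine proteases that cytotoxic T cells and natural killer (NK) cells store in granules, and perforin is the pore-forming protein that lets them into a target cell. The transcripts of 8 such genes were followed here in tumors of 4T1 cells, which are BALB/c mammary carcinoma cells studied as triple-negative breast cancer: Gzma, Gzmb and the perforin gene Prf1, and the block of Gzmc, Gzmd, Gzme, Gzmf and Gzmg. The members are a list of genes by name, with no threshold on measured values, and the tables of both tumor sites hold all 8 among the 17125 genes they share. The 16 poly(A) RNA libraries formed 4 groups: 5 libraries of liver tumors from mice given paclitaxel (post_Liver), 5 of untreated liver tumors (pre_Liver), 3 of treated mammary fat pad tumors (post_SC) and 3 of untreated fat pad tumors (pre_SC). All came from wild-type female BALB/c mice 6 weeks of age. Paclitaxel, which stabilises microtubules, was dosed at 10 mg/kg into the peritoneum on 5 occasions in each of 2 weeks, with saline for the control mice. The submitters' labels do not say whether the untreated tumors were saline controls or were collected before dosing, nor how the stated 15 days of tumor growth relate to the treatment, so tumor age and treatment cannot be told apart. Liver tumors were started from 200000 cells and fat pad tumors from 400000, so the site and the number of implanted cells cannot be told apart either. Tumors were digested with enzymes and the suspended cells frozen before RNA extraction, with no sorting step in the labels, so host leukocytes and hepatocytes were sequenced together with the carcinoma cells. Libraries carry a number in their group but no statement that each is another mouse, so the p-values refer to library-to-library spread, which may be technical.

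In a cytotoxic lymphocyte, granzyme precursors are trimmed by cathepsin C, packed on the proteoglycan serglycin and released toward the target when the granule fuses with the membrane. Granzyme B cleaves after aspartate and activates caspases in the target, while granzyme A is a trypsin-like protease. Granzymes C to G are rodent genes with no direct human counterpart. They are known from lymphocytes stimulated strongly in culture and, for several of them, from the granulated NK cells of the pregnant mouse uterus.

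The Gzmc to Gzmg genes lie side by side. In the GENCODE annotation of GRCm38 the stretch chr14:56117626-56262260, of 144.6 kb, holds 7 protein-coding genes, all on the minus strand and all granzymes, in the order Gzme, Gzmd, Gzmg, Gzmn, Gzmf, Gzmc and Gzmb. Gzmb (chr14:56258838-56262260) therefore neighbours Gzmc (chr14:56231441-56234656), whereas Gzma (chr13:113093825-113100981, minus strand) and Prf1 (chr10:61297833-61304680, plus strand) lie on other chromosomes. The whole transcripts of Gzmd, Gzme, Gzmf and Gzmg were 83.1% to 90.0% identical in pairs, those of Gzmc 68.8% to 70.6% identical to these, and that of Gzmb 45.4% to 47.5% identical to the block. Stretches of 75 bases in each member's transcript were looked up in transcripts of the other members and of the granzymes Gzmn, Gzmk and Gzmm. Of all such stretches, 5.7% in Gzmd, 4.8% in Gzme and 6.8% in Gzmg also occurred there, and none did in the other 5 members. The authors' counting could have split such reads between the copies, so the values of Gzmd, Gzme and Gzmg are less certain than those of the other 5 members.

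The promoters show how close the block is, and how far Gzmb stands from it although it is the next gene. The 160 bases before the RefSeq start (GRCm38.p6, minus strand) are given 5′ to 3′ for Gzmc (chr14:56234658-56234817), Gzmd (chr14:56132594-56132753), Gzme (chr14:56120626-56120785), Gzmf (chr14:56211408-56211567), Gzmg (chr14:56159580-56159739) and, for contrast, Gzmb (chr14:56262335-56262494). Capitals mark a run of 20 bases that all 5 block promoters share and, before it in Gzmc, Gzmf and Gzmg, the 8 bases of a cyclic AMP response element (CRE).
Gzmc: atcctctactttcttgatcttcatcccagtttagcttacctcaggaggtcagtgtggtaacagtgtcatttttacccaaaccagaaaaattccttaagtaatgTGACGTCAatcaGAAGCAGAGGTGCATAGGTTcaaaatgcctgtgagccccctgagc
Gzmd: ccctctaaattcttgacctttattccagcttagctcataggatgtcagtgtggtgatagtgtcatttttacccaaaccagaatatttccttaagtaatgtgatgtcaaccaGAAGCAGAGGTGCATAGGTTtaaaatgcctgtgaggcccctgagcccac
Gzme: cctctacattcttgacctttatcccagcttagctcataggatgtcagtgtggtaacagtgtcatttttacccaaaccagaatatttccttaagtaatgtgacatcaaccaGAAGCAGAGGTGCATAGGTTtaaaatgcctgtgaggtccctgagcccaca
Gzmf: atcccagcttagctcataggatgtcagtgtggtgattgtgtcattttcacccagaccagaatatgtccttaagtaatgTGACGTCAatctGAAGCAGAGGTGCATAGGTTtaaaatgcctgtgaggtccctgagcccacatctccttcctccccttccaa
Gzmg: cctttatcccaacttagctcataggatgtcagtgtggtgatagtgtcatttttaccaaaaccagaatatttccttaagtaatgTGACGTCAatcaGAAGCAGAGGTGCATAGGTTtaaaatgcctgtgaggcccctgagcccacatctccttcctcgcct
Gzmb: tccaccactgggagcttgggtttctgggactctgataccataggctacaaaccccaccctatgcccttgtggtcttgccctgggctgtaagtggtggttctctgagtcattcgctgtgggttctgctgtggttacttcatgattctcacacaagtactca

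RefSeq held a promoter window (250 bases before to 50 after the start) for all 8 members. Within the block these windows were 73.5% to 93.4% identical in pairs, and that of Gzmb was 43.5% to 47.8% identical to the block. The run GAAGCAGAGGTGCATAGGTT begins 45 bases before the start in Gzmc, 49 in Gzmd, 50 in Gzme, 70 in Gzmf and 65 in Gzmg, and on either strand it was found in no other of the 32851 mouse promoter windows. The CRE letters TGACGTCA were found in the windows of Gzmc, Gzmf and Gzmg, and in 1.79% of all windows on either strand. The RUNX letters TGTGGT stood in the windows of all 8 members and in 16.8% of all windows. The AP-1 letters TGANTCA and the STAT letters TTCNNNGAA stood in the window of Gzmb alone among the members, and in 7.81% and 8.3% of all windows. The T-box letters AGGTGTGA were in no member's window and in 1.28% of all windows. The TATA-like letters TTTAAAA were in the windows of Gzmd, Gzme, Gzmf, Gzmg and Prf1 and in 8.74% of all. In Gzmd, Gzme, Gzmf and Gzmg they overlap the end of the shared run. A match of letters is a description of the window and not a binding site.

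Levels are given as TPM, recomputed over the shared genes in every library because no single deposited table holds both treated groups. Read depth is unknown, since the deposited values are not counts. The carcinoma epithelium list (8 keratin, claudin and adhesion genes) summed to 1113 to 3776 TPM in treated liver, 580 to 3029 in untreated liver, 4618 to 5361 in treated fat pad and 4714 to 5184 in untreated fat pad. Hepatocyte markers summed to 5160 to 124800 TPM in treated liver and 46010 to 183700 in untreated liver, and to 337 TPM at most in a fat pad library. The treated liver libraries 2 and 3 were the closest pair of any group, with 0.7% of genes differing over 2-fold, and results that rest on them are given without them where the call depended on it. In the table of untreated libraries, untreated liver libraries 4 and 5 carry another batch correction than the remaining 6 libraries. They also had the highest hepatocyte sums of all 16 libraries and the lowest Gzma and Gzmb levels of their group. All 15 housekeeping genes looked at were above 0 in each library, so a granzyme listed at 0 is not a failed library.

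By group mean, every member was lowest in untreated liver and highest in untreated fat pad, and the distance between them differed by gene. Gzmc averaged 8.83 ± 4.13 TPM in treated liver and 1.24 ± 0.932 TPM in untreated liver (SD, n = 5 each), and 18.1 ± 4.12 TPM in treated fat pad and 67.05 ± 15.8 TPM in untreated fat pad (SD, n = 3 each). Gzmb averaged 44.3 ± 25.3 TPM in treated liver and 32.9 ± 16.6 TPM in untreated liver, and 33.1 ± 15.5 TPM in treated fat pad and 89.6 ± 33.1 TPM in untreated fat pad. The Gzmc means thus ran in the order untreated fat pad, treated fat pad, treated liver, untreated liver, and of these neighbours only treated liver and treated fat pad were not separated by the test described below. For Gzmb the means of treated liver, treated fat pad and untreated liver lay within 1 SD of each other, and only the untreated fat pad stood above.

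**Figure D1:**
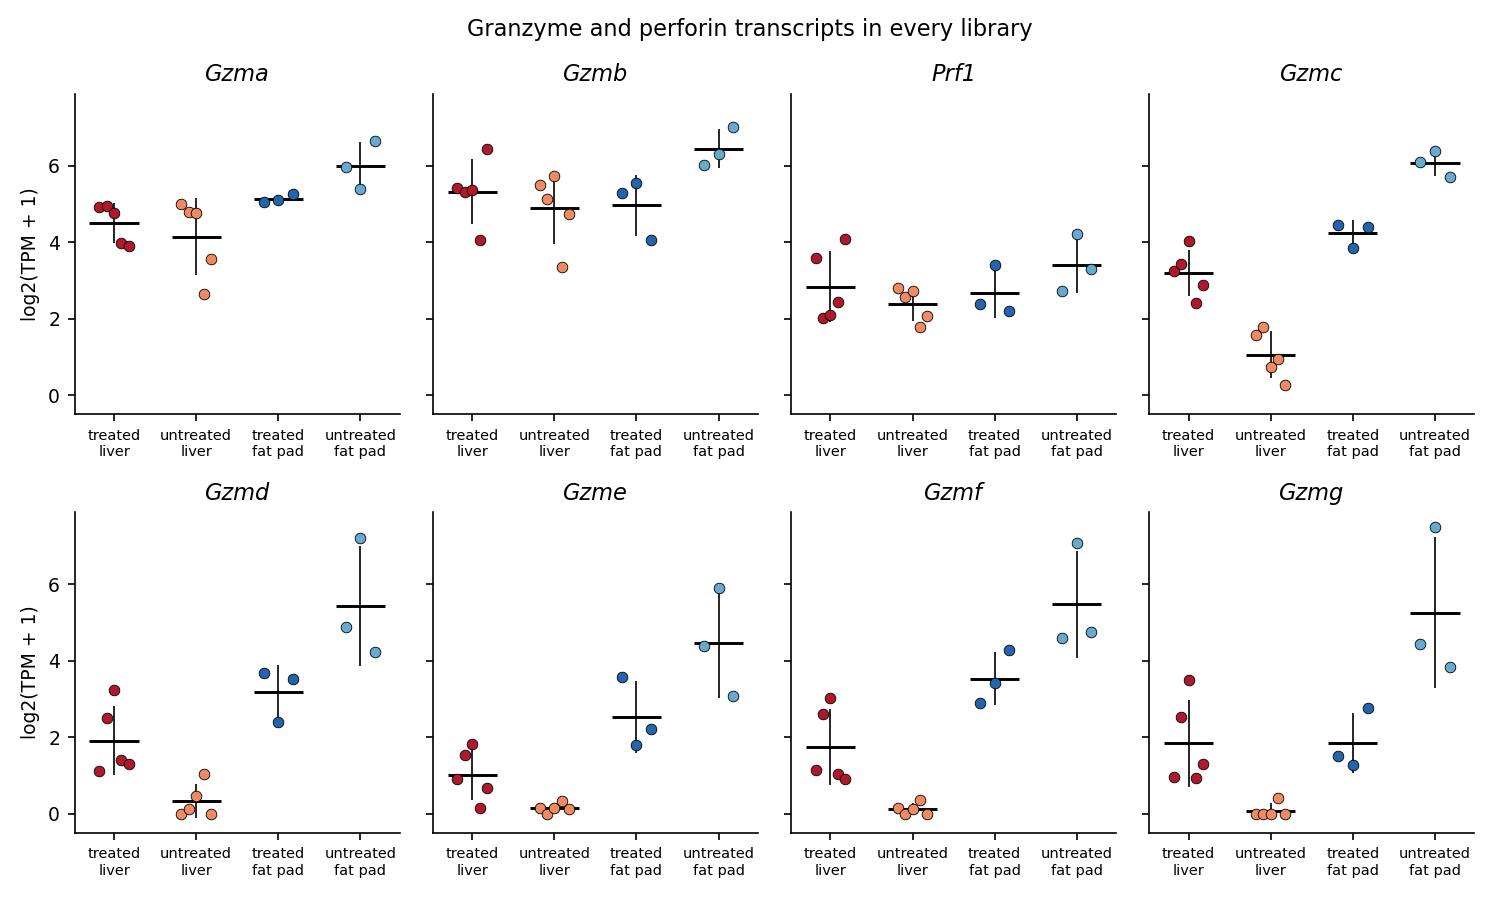
Expression of the 8 genes in every library, as log2(TPM + 1) on the vertical axis, with 1 point per library, a horizontal bar at the group mean and a vertical line of 1 SD on either side. The liver groups overlap for Gzma, Gzmb and Prf1, while Gzmc stands at 4.31 to 15.2 TPM in treated liver and 0.21 to 2.45 TPM in untreated liver.

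Under paclitaxel Gzmc was lower in the fat pad tumors. Gzmc, a granzyme of activated T and NK cells, was the 1 member of 8 that passed the test, against 4.35% of 13160 genes called lower, where called means a limma p adjusted over all genes tested under 0.05. Its levels were 20.9, 13.4 and 20.1 TPM in the treated fat pad libraries, against 67.5, 82.6 and 51.0 TPM in the untreated ones. The groups did not overlap, and Gzmc fell by 1.83 ± 0.23 (SE) on the log2(TPM + 1) scale (limma adjusted p = 0.0117), lower in 3 of 3 treated libraries than in any untreated one. Without untreated fat pad library 1 the same difference of −1.81 had a limma adjusted p of 0.0531. In bulk RNA, fewer cells that express a gene and less RNA per cell cannot be told apart. The exact permutation test of 3 libraries against 3 cannot go below 0.1, which Gzmc reached.

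Gzmg, the member with the widest gap in means, stood at 1.85, 1.43 and 5.76 TPM in treated fat pad, against 20.5, 180.2 and 13.1 TPM in untreated fat pad. These groups were apart as well, but the untreated libraries ran over a wide range, and the difference of −3.40 ± 0.90 was not called (limma adjusted p = 0.0642). Gzmd had 11.8, 4.22 and 10.5 TPM in treated fat pad, against 28.3, 146 and 17.7 TPM in untreated fat pad (−2.24 ± 0.73, limma adjusted p = 0.103). Gzmf had 6.40, 9.72 and 18.3 TPM in treated fat pad, against 22.9, 134 and 26 TPM in untreated fat pad (−1.95 ± 0.67, limma adjusted p = 0.114). Both pairs of groups were apart, and untreated library 2 was far above its 2 companions in each. Gzme had 10.9, 2.47 and 3.62 TPM in treated fat pad, against 19.9, 59.0 and 7.40 TPM in untreated fat pad. Here the highest treated library lay above the lowest untreated one (−1.93 ± 0.73, limma adjusted p = 0.142).

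The remaining 3 genes were lower on average in treated fat pad without passing the test. Gzma stood at 31.9, 33.3 and 37.1 TPM in treated fat pad, against 61.3, 40.5 and 98.7 TPM in untreated fat pad (−0.86 ± 0.29, limma adjusted p = 0.11). Gzmb stood at 38.2, 45.4 and 15.7 TPM in treated fat pad, against 64.0, 77.7 and 127 TPM in untreated fat pad (−1.48 ± 0.41, limma adjusted p = 0.0696). Neither pair of groups overlapped. Prf1 had 4.23, 9.63 and 3.56 TPM in treated fat pad, against 5.66, 17.5 and 8.77 TPM in untreated fat pad, with overlap (−0.75 ± 0.44, limma adjusted p = 0.309). In all, 6 of 8 members had groups that did not overlap and were lower in treated fat pad, a state reached by 18.8% of the genes tested, and the median of all genes was −0.03.

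In the liver Gzmc was higher after paclitaxel, while Gzma, Gzmb and Prf1 were not separated. Gzmc had 8.54, 9.71, 15.2, 4.31 and 6.35 TPM in the treated liver libraries, against 1.96, 2.45, 0.672, 0.913 and 0.209 TPM in the untreated ones. Each treated library was above each untreated one, and Gzmc rose by 2.14 ± 0.36 (limma adjusted p = 0.015, higher in 5 of 5 treated libraries, exact permutation p = 0.00794, the smallest that 5 against 5 allows). It was the 1 member called, where 2.21% of 13556 genes were called higher and the median of all genes was 0.39. Its call was lost without treated liver library 1 (adjusted p = 0.0512), treated liver 2 (0.0509) or untreated liver 3 (0.0561), and without treated liver 2 and 3 together (1.79, limma adjusted p = 0.0617), while the difference itself stayed between 1.74 and 2.97 in all 22 alternatives.

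Gzmd, Gzmf and Gzmg were close to 0 in untreated liver and detectable in each treated liver library. Gzmd had 1.18, 4.64, 8.33, 1.66 and 1.45 TPM in treated liver, against 0, 0.0958, 0.392, 1.07 and 0 TPM in untreated liver (1.58 ± 0.42, limma adjusted p = 0.0648). Gzmf had 1.2, 5.07, 7.19, 1.05 and 0.884 TPM in treated liver, against 0.111, 0, 0.0934, 0.278 and 0 TPM in untreated liver (1.62 ± 0.41, limma adjusted p = 0.0596). Gzmg had 0.944, 4.79, 10.3, 0.897 and 1.45 TPM in treated liver, against 0.337 TPM in untreated liver 4 and a listed value of 0 in the other 4 untreated libraries (1.76 ± 0.47, limma adjusted p = 0.0655). In all 3 genes treated liver libraries 2 and 3 were the highest and no treated library reached down to the untreated ones, so that 4 of 8 members, Gzmc included, had higher groups without overlap, against 5.13% of the genes tested. The test did not call Gzmd, Gzmf or Gzmg, and the exact permutation p of each was 0.00794. All 3 were called without treated liver 4 (limma adjusted p = 0.043 for Gzmd, 0.0374 for Gzmf and 0.0374 for Gzmg), without untreated liver 2 (0.0391, 0.0359 and 0.0383) and with the replicate number as a block. Calls over all genes rose in the same fits, to 1761 of 13565 genes, 3982 of 13547 and 3068 of 13556, against 432 of 13556 in the main fit. With a pseudocount of 0.1, Gzmf and Gzmg were called (3.69 and 4.17, limma adjusted p = 0.0233 and 0.0217). Gzmd gained a call in 3 of the 20 alternatives that tested it, Gzmf in 4 of 18 and Gzmg in 4 of 19. Without treated liver 3, Gzmf and Gzmg averaged under 1 TPM and were not tested. Without treated liver 2 and 3 together, all 3 genes averaged under 1 TPM, so none was tested without that pair. Since their untreated levels were under the limit of 1 TPM on the mean, they entered the fit only through the treated libraries. Neither their count nor the calls they gained in alternatives are read as support. Gzme stayed below that limit, with 0.885, 1.88, 2.56, 0.114 and 0.590 TPM in treated liver, against 0.111, 0, 0.112, 0.258 and 0.0951 TPM in untreated liver. Its groups overlapped through treated library 4.

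Gzma, Gzmb and Prf1 were not called in the liver. Gzma had 29.3, 29.7, 26, 14.8 and 13.8 TPM in treated liver, against 30.7, 26.4, 25.96, 5.24 and 10.7 TPM in untreated liver. Gzmb had 41.8, 38.6, 40.2, 15.6 and 85.2 TPM in treated liver, against 44.1, 33.7, 51.9, 9.15 and 25.4 TPM in untreated liver. Prf1 had 10.9, 3.04, 3.26, 4.39 and 16.05 TPM in treated liver, against 5.91, 4.98, 5.58, 2.46 and 3.195 TPM in untreated liver. All 3 pairs of groups overlapped, though Prf1 in treated liver 1 and 5 and Gzmb in treated liver 5 lay above every untreated library, with differences of 0.36 ± 0.46 for Gzma, 0.43 ± 0.50 for Gzmb and 0.45 ± 0.42 for Prf1 (limma adjusted p = 0.551, 0.511 and 0.419), close to the 0.39 median of all genes. The sign of the Gzma difference turned when libraries were scaled by the median of ratios (−0.02), under quantile normalization (−0.02) and without untreated liver 4 (−0.02).

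**Figure D2:**
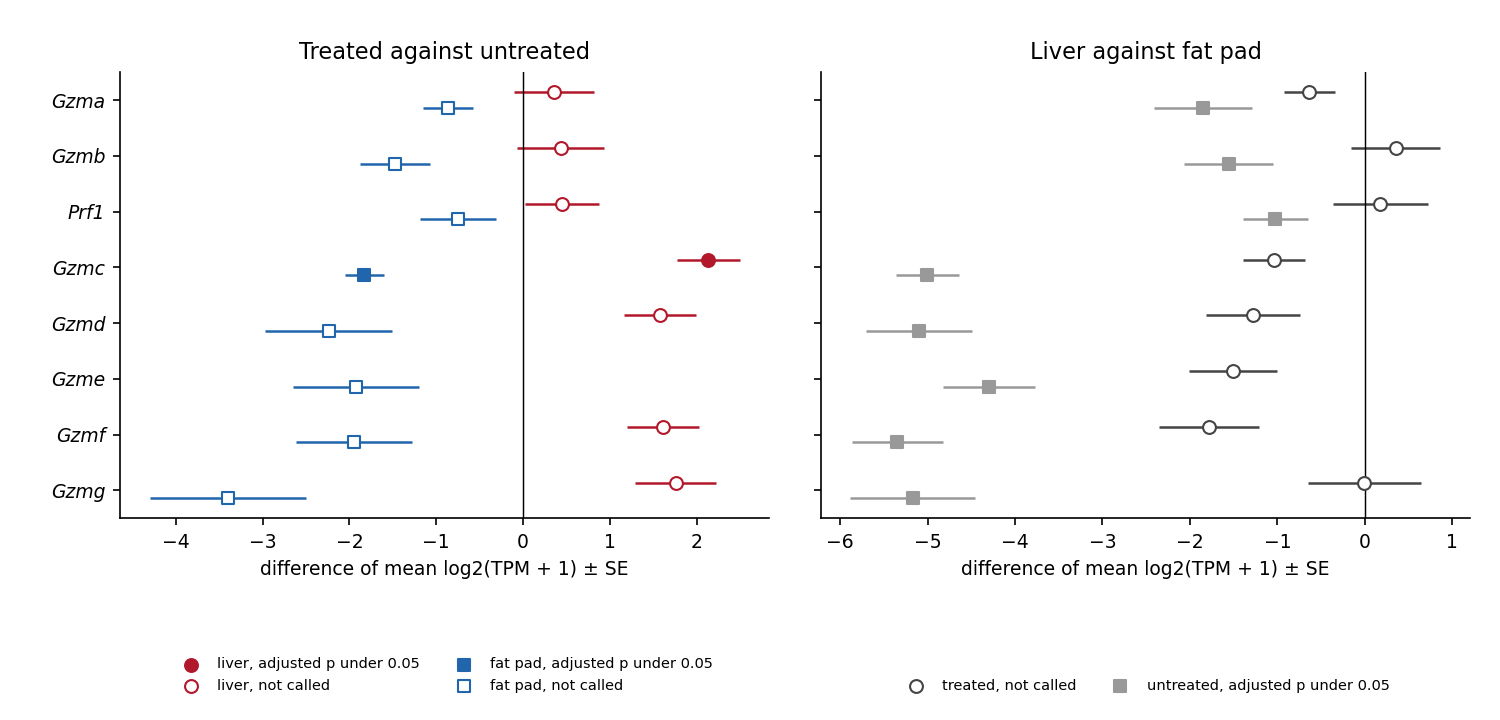
Differences of mean log2(TPM + 1) with their SE for each gene, at left treated against untreated in the liver (circles) and the fat pad (squares), at right liver against fat pad in treated (circles) and untreated tumors (squares). Filled symbols were called at an adjusted p under 0.05, Gzme is absent from the liver response because its mean was under 1 TPM, and Gzmc is filled on both sides of 0 at left, at 2.14 in the liver and −1.83 in the fat pad.

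The difference between the responses was tested as an interaction over all 16 libraries. Of the 8 members, 4 were called, all from the block and all higher in the liver response than in the fat pad response, where 2.23% of 13705 genes were called in that direction. Gzmd, Gzmf and Gzmg averaged under 1 TPM in untreated liver and passed the filter only through the groups where they were higher, so nothing is read from this count. The interaction, liver response minus fat pad response, was 3.96 ± 0.53 for Gzmc (limma adjusted p = 0.00291), 5.16 ± 1.03 for Gzmg (0.019), 3.82 ± 0.87 for Gzmd (0.0322) and 3.56 ± 0.82 for Gzmf (0.0341). The fifth gene of the block, Gzme, stood at 2.79 ± 0.76 (limma adjusted p = 0.0606). Gzmb stood at 1.91 ± 0.78 (limma adjusted p = 0.156), Gzma at 1.22 ± 0.67 (0.257) and Prf1 at 1.199 ± 0.69 (0.274), so a difference of responses was not shown for these genes. Gzmc kept its call in all 27 alternatives and Gzmg in 26, losing it without treated fat pad library 1 (limma adjusted p = 0.0528). Gzmd and Gzmf lost theirs in 9 and 10 of 27, most of them fits without 1 library, with adjusted p up to 0.0757 for Gzmd and 0.1 for Gzmf.

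Before treatment, all 8 members were lower in liver tumors than in fat pad tumors, with the 5 widest differences in the block. The test called 8 of 8 lower, against 32.7% of 13483 genes called lower and a median of −0.51 over all genes. Gzmc fell by 5.00 ± 0.36 in untreated liver relative to untreated fat pad (limma adjusted p = 3.06e-05). Gzmf fell by 5.35 ± 0.52 (limma adjusted p = 0.000161), Gzmg by 5.17 ± 0.71 (0.00119), and Gzmd by 5.10 ± 0.61 (0.000532). Gzme fell by 4.30 ± 0.52 (limma adjusted p = 0.000582). Levels near 0 in untreated liver let the pseudocount set these sizes, and with 0.1 in place of 1 the differences were −5.97 for Gzmc, −7.35 for Gzmd, −6.70 for Gzme, −7.97 for Gzmf and −8.09 for Gzmg. In TPM, Gzmd averaged 0.312 ± 0.454 in untreated liver and 63.9 ± 71.0 in untreated fat pad, and Gzmf 0.0964 ± 0.114 in untreated liver and 61.1 ± 63.5 in untreated fat pad. Gzmd, Gzme, Gzmf and Gzmg averaged under 1 TPM in untreated liver, so they entered the fit only through the fat pad libraries, and the count of 8 is not read as support. Gzmc, at 1.24 TPM in untreated liver, kept its call in all 20 alternatives (limma adjusted p of at most 0.000456). Its groups did not overlap, a state reached by 34.9% of genes in this direction. Gzmd, Gzme, Gzmf and Gzmg also kept their calls (limma adjusted p of at most 0.00497) and had groups apart. Given how these 4 genes entered the fit, nothing is read from that.

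Gzma, Gzmb and Prf1 stood closer to the test's limit. Gzma averaged 19.8 ± 11.1 TPM in untreated liver and 66.8 ± 29.5 TPM in untreated fat pad and fell by 1.85 ± 0.56 (limma adjusted p = 0.0297). Gzmb averaged 32.9 ± 16.6 TPM in untreated liver and 89.6 ± 33.1 TPM in untreated fat pad and fell by 1.56 ± 0.51 (limma adjusted p = 0.0375). Prf1 averaged 4.43 ± 1.52 TPM in untreated liver and 10.6 ± 6.14 TPM in untreated fat pad and fell by 1.02 ± 0.37 (limma adjusted p = 0.0492). The groups of Prf1 overlapped, so that 7 of 8 members were lower without overlap, against 34.9% of genes, and the Prf1 call was lost in 17 of 20 alternatives. The Gzma call was lost without untreated liver 5 (limma adjusted p = 0.0589) and without untreated fat pad 1, 2 or 3 (0.0912, 0.051 and 0.108). The Gzmb call was lost without the same libraries (limma adjusted p = 0.0687, 0.0807, 0.0848 and 0.128). It was also lost with scaling by the median of ratios (−1.04, limma adjusted p = 0.0977) and with the hepatocyte marker genes left out of the TPM (0.0507). Within the first batch of untreated libraries, 3 against 3, the differences were −4.70 for Gzmc, −1.15 for Gzma, −0.99 for Gzmb and −0.72 for Prf1 (limma adjusted p = 6.29e-05, 0.0255, 0.032 and 0.14). The split of calls over all genes moved with the scaling. In untreated liver, 2009 genes were called higher and 4413 lower with TPM, and 3073 higher and 2461 lower with the median of ratios, which moved the median of all genes to −0.02 and the Gzmc difference to −4.61.

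After treatment, limma called none of the 8 members between liver and fat pad tumors, against 9.43% of 13770 genes. An unadjusted p under 0.05 was found for 4 of 8, all in the block, and for 3897 of the 13770 genes. Gzmc averaged 8.83 ± 4.13 TPM in treated liver and 18.1 ± 4.12 TPM in treated fat pad (−1.04 ± 0.36, limma adjusted p = 0.103). Gzmf averaged 3.08 ± 2.88 TPM in treated liver and 11.5 ± 6.12 TPM in treated fat pad (−1.78 ± 0.57, limma adjusted p = 0.0854). Gzmg was level, with 3.68 ± 4.04 TPM in treated liver and 3.01 ± 2.39 TPM in treated fat pad (−0.01 ± 0.65, limma adjusted p = 0.994). Gzmb stood at 0.35 ± 0.51 and Prf1 at 0.18 ± 0.54 (limma adjusted p = 0.662 and 0.84), both with overlap, and the signs of Gzmg, Gzmb and Prf1 each turned in at least 1 alternative. Gzma, at 22.7 ± 7.82 TPM in treated liver and 34.1 ± 2.70 TPM in treated fat pad, was the 1 member whose groups did not overlap, against 13.7% of genes lower without overlap (−0.63 ± 0.29, limma adjusted p = 0.192). Gzmc and Gzmf were called without treated liver 3 (−1.24 and −2.10, limma adjusted p = 0.0382 and 0.0309), where 1505 of 13767 genes were called. Gzmc, Gzmd, Gzme and Gzmf were called without both treated liver 2 and 3 (limma adjusted p = 0.0104, 0.00646, 0.0155 and 0.00184). In that fit 4767 of 13714 genes were called, against 1298 of 13770 in the main fit, so nothing is read from these calls.

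The make-up of the granzyme transcripts also differed between libraries. The block gave 13.5%, 26.8%, 38.6%, 18.8% and 8.53% of the summed TPM of the 8 genes in the treated liver libraries, against 2.63%, 3.77%, 1.499%, 14.5% and 0.767% in the untreated ones. In the fat pad it gave 41.1%, 26.2% and 50.8% in treated tumors, against 54.9%, 81.6% and 33.0% in untreated tumors. Untreated liver 4, the highest of its group, overlapped the treated liver range, and the fat pad groups overlapped too. That library's summed block was 2.86 TPM, and its Gzma, Gzmb and Prf1 together gave 16.9 TPM, the lowest such sum of the 16 libraries. As mean log2(TPM + 1) of the block minus that of Gzma, Gzmb and Prf1, the groups stood at −2.28 ± 1.03 in treated liver, −3.45 ± 0.88 in untreated liver, −1.19 ± 0.88 in treated fat pad and 0.05 ± 1.43 in untreated fat pad (SD), and no test was made of this score. Gzmb was the highest of the 8 genes in all 10 liver libraries and 3 of the 6 fat pad libraries, Gzma in treated fat pad 3, Gzmc in untreated fat pad 1 and Gzmg in untreated fat pad 2.

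**Figure D3:**
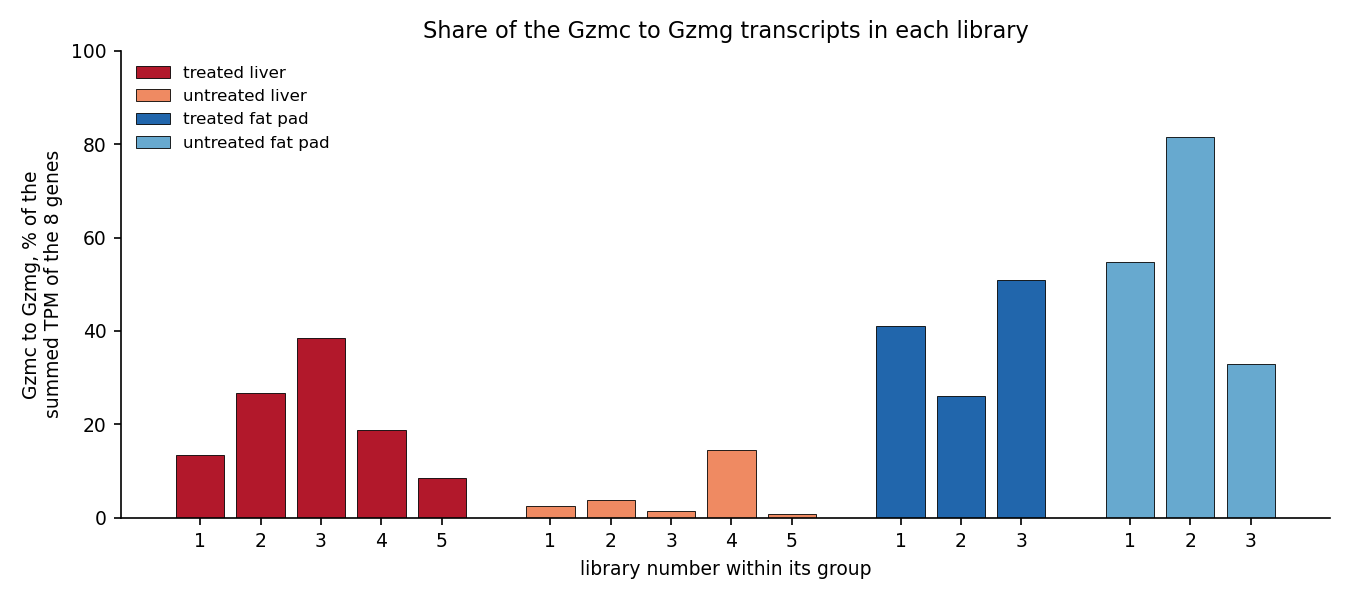
Share of Gzmc, Gzmd, Gzme, Gzmf and Gzmg in the summed TPM of the 8 genes, in percent on the vertical axis, with 1 bar per library and colours for the 4 groups. The bars run from 8.53% to 38.6% in treated liver, 0.767% to 14.5% in untreated liver, 26.2% to 50.8% in treated fat pad and 33.0% to 81.6% in untreated fat pad.

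Single libraries carried much of the block within their groups. Untreated fat pad 2 held 602 TPM of the block, against 159 and 115 TPM in the other 2 untreated fat pad libraries, and Gzmg, Gzmd and Gzmf accounted for most of it while Gzmc gave 13.7%. Gzmb in that library, at 77.7 TPM, lay between the other two. In treated liver, libraries 2 and 3 held 26.1 and 43.6 TPM of the block, against 12.7, 8.03 and 10.7 TPM in libraries 1, 4 and 5. These 2 libraries had the fewest hepatocyte transcripts of the liver, 6079 and 5160 TPM, against 46680, 124800 and 44400 TPM in libraries 1, 4 and 5, and the lowest Prf1 of their group. Treated liver 5, with the highest Gzmb (85.2 TPM) and Prf1 (16.05 TPM) of the liver, held 10.7 TPM of the block. With the 19 hepatocyte marker genes left out of the TPM, the Gzmc difference between treated and untreated liver was 2.11 (limma adjusted p = 0.0152). Other hepatocyte transcripts stayed in, and the median of all genes was 0.29 in that fit, against 0.39 in the main fit.

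Markers of T cells and NK cells, the lymphocytes best known for granzymes, were called in neither response. The 10 T cell genes found in the tables, Cd3e and Cd8a among them, summed to 82.8 to 342 TPM in treated liver, 75.2 to 288 TPM in untreated liver, 79.4 to 170 TPM in treated fat pad and 65.6 to 89.7 TPM in untreated fat pad. The 9 NK cell genes, Ncr1 among them, summed to 25.7 to 82.2 TPM in treated liver, 13.3 to 82.5 TPM in untreated liver, 31.8 to 63.4 TPM in treated fat pad and 35.4 to 57.3 TPM in untreated fat pad. These ranges overlapped in both responses, and no gene of either list was listed at 0 throughout a group. In the liver response limma called 0 of 10 T cell genes and 0 of 7 NK cell genes, and none had an unadjusted p under 0.05. Of all 13556 genes tested there, 432 were called and 4324 had an unadjusted p under 0.05. In the fat pad response limma called 0 of 10 and 0 of 8, with 1 and 4 at an unadjusted p under 0.05. Of all 13160 genes tested there, 920 were called and 3607 had an unadjusted p under 0.05. With so few calls over all genes, their absence from lists this short is not read as a result. Between untreated sites only Cd4, higher in liver (0.96 ± 0.25, limma adjusted p = 0.0197), and Eomes, lower in liver (−1.53 ± 0.55, limma adjusted p = 0.0465), were called among them. Of all genes, 14.9% were called higher there and 32.7% lower. The T cell differences ran from 0.50 to 1.09, with a median of 0.91, and the NK cell list had a median of 0.15. The median of all genes was −0.51.

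Mast cell and basophil genes, several of which lie next to the block on chromosome 14, were called in several comparisons. Of 9 tested, 7 were lower in untreated liver than in untreated fat pad, where 32.7% of all genes were called lower. In treated liver 6 of 9 rose, where 2.21% of all genes were called higher, among them Cpa3, a mast cell and basophil carboxypeptidase (2.45 ± 0.27, limma adjusted p = 0.00333), and Fcer1a, a chain of the IgE receptor (1.80 ± 0.31, limma adjusted p = 0.016). The list summed to 102 to 204 TPM in treated liver, 21.7 to 45.3 TPM in untreated liver, 14.8 to 308 TPM in treated fat pad and 108 to 382 TPM in untreated fat pad. In none of the 4 groups did 1 library hold both the most block transcripts and the highest mast cell sum. Mcpt8, a basophil protease and the second gene beyond Gzme, had 20.3, 29.0, 28.1, 19.7 and 5.60 TPM in treated liver, against 3.899, 3.199, 2.75, 4.27 and 1.14 TPM in untreated liver. In the fat pad it had 2.83, 1.10 and 1.04 TPM in treated tumors, against 14.4, 13.0 and 32.1 TPM in untreated tumors. Mcpt8 rose in the liver by 2.30 ± 0.42 (limma adjusted p = 0.0206), fell in the fat pad by 2.92 ± 0.39 (0.0137) and had an interaction of 5.22 ± 0.66 (0.00253). It was the 1 gene of 9 called in the fat pad response, where 4.35% of all genes were called lower. In the interaction 3 of 9 were called higher, against 2.23% of all genes. Within the liver groups, Mcpt8 was highest in untreated liver 4 and in treated liver 2 and 3, which also held the most block transcripts. In both fat pad groups the highest library differed. The part of mast cells or basophils in the granzyme values was not tested.

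**Figure D4:**
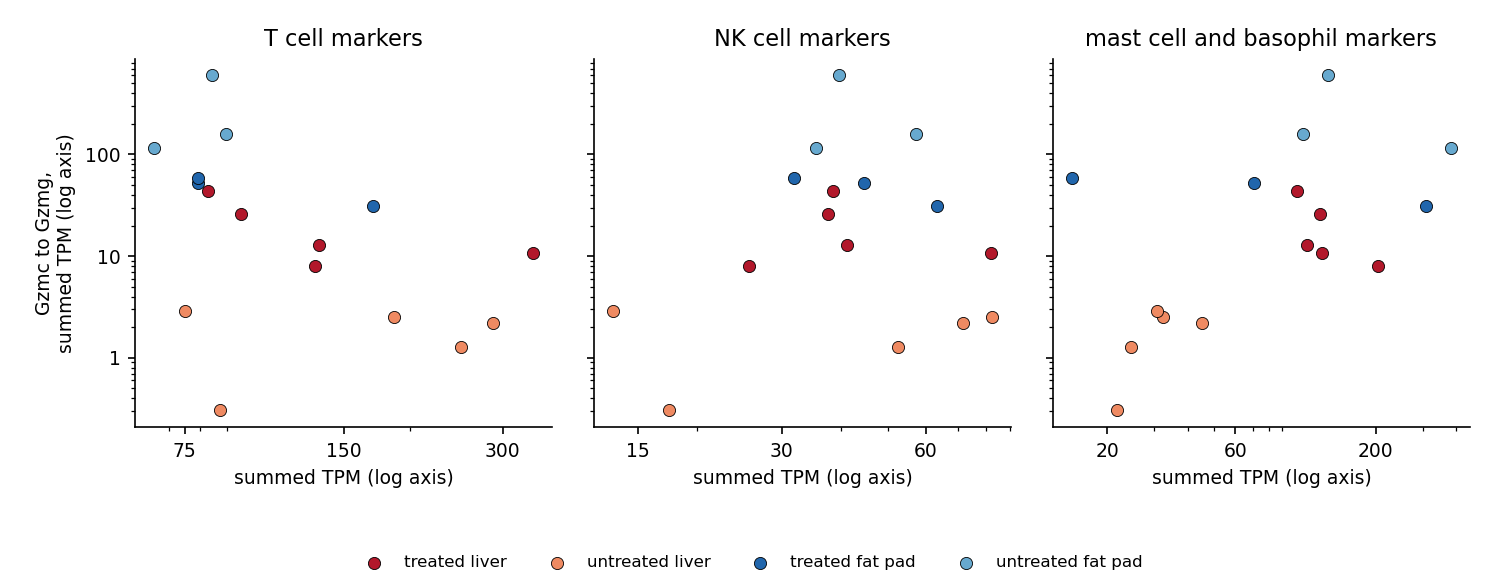
Summed TPM of Gzmc to Gzmg on the vertical axis against the summed TPM of T cell, NK cell, and mast cell and basophil marker genes on the horizontal axes, all on log scales, with 1 point per library coloured by group. The liver groups overlap along the T cell and NK cell axes and are apart along the mast cell axis, at 102 to 204 TPM treated and 21.7 to 45.3 TPM untreated.

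Several neighbouring genes of the locus were called as well. Ctsg, the cathepsin G gene of immature neutrophils, lies next to Gzme and rose by 4.82 ± 0.65 in treated liver (limma adjusted p = 0.00597), to 57.6 to 334 TPM against 1.64 to 25.3 TPM in untreated liver. In the fat pad Ctsg reached 3.38 TPM at most. Immature neutrophil genes (Elane, Prtn3, Mpo and Ctsg) rose 4 of 4 in treated liver and neutrophil genes 6 of 6, where 2.21% of all genes were called higher. The mast cell protease genes Mcpt4 (1.89 ± 0.35, limma adjusted p = 0.022) and Mcpt1 (2.11 ± 0.50, limma adjusted p = 0.0498) also rose in treated liver, and Mcpt1 shares a family of close copies, so that its value is uncertain. Gzmn, which sits between Gzmg and Gzmf, was at or near 0 everywhere, with at most 0.24 TPM in any library and 0 in all 5 treated liver libraries. Gzmb, at the other end of the stretch, was not called in either response. Of the other granzymes, Gzmk averaged 8.96 ± 6.85 TPM in treated liver, 7.04 ± 3.50 TPM in untreated liver, 1.81 ± 0.546 TPM in treated fat pad and 3.25 ± 1.46 TPM in untreated fat pad, and was called in no comparison.

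**Figure D5:**
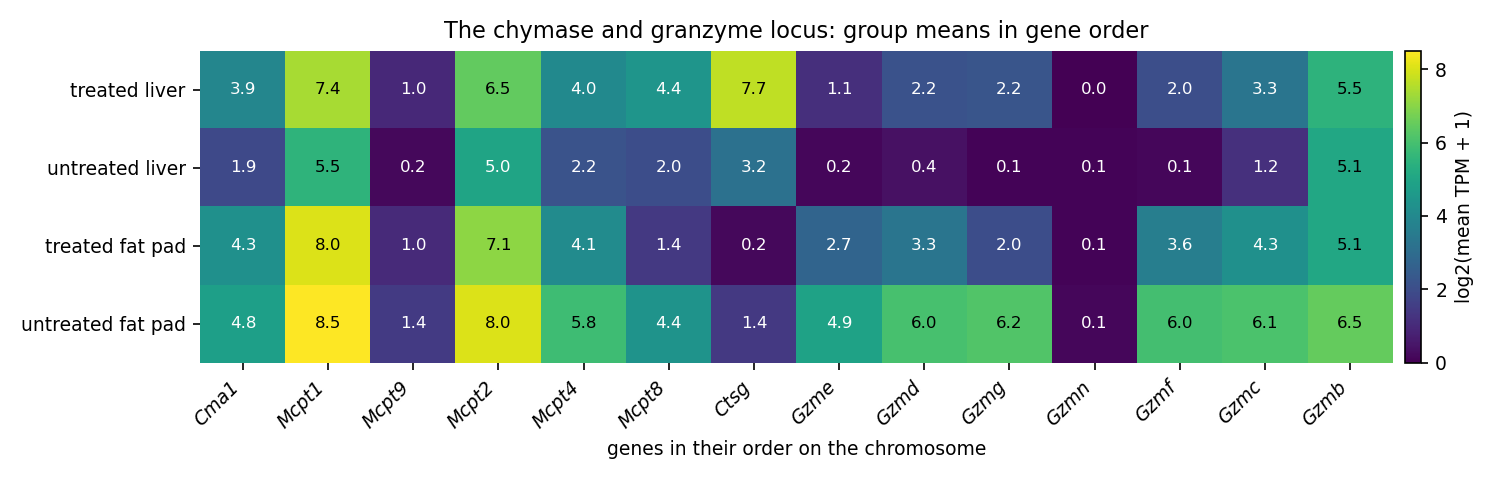
Group means of the genes of the chymase and granzyme locus in their order on the chromosome, as log2(mean TPM + 1) written in each cell and shown by colour, with the 4 groups as rows. Gzmn is at 0 or 0.1 in all groups, and Ctsg is high only in the treated liver row. The neighbours of Gzmn, Gzmg and Gzmf, are expressed except in untreated liver, where they average 0.0675 and 0.0964 TPM.

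Some genes that process and release granzymes changed. Of 11 tested, 2 fell in treated fat pad, where 4.35% of all genes were called lower. These were Ctsc, which encodes the cathepsin C that activates granzymes (−1.27 ± 0.19, limma adjusted p = 0.0168), and Unc13d, which primes granules for fusion (−1.18 ± 0.23, 0.0314), and the list's median was −0.08. In treated liver 4 of 11 rose, where 2.21% of all genes were called higher, and the median was 0.86, next to the 0.39 median of all genes. These were Cst7, an inhibitor of cathepsin C (1.53 ± 0.24, limma adjusted p = 0.00979), Rab27a, which docks granules (0.93 ± 0.17, 0.0229), Stx11, a fusion protein (1.23 ± 0.25, 0.03), and Srgn, which encodes serglycin (1.69 ± 0.37, 0.0371). Neutrophils use several of these genes too, and their markers rose in the same libraries; their part was not tested. Among granzyme inhibitors, Serpinb6b fell in treated fat pad (−1.22 ± 0.28, limma adjusted p = 0.0459), and Serpinb9, the inhibitor of granzyme B, stood at −0.31 ± 0.14 there and −0.10 ± 0.28 in the liver response (limma adjusted p = 0.186 and 0.783).

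Some receptors that take part in granzyme induction changed in the fat pad. In treated fat pad, 2 of 10 tested cytokine and receptor genes fell, against 4.35% of all genes called lower. They were Il12rb1, a chain of the interleukin-12 receptor (−1.48 ± 0.20, limma adjusted p = 0.0145), and Il21r, the interleukin-21 receptor (−0.84 ± 0.20, 0.0472). Il2ra, the high-affinity chain of the interleukin-2 receptor, stood at −0.84 ± 0.24 (limma adjusted p = 0.0767). In treated liver limma called 0 of 10, with 3 at an unadjusted p under 0.05. The activation receptor gene Tnfrsf9 fell in treated fat pad (−1.65 ± 0.19, limma adjusted p = 0.00987), as did Itga2, an integrin chain of NK cells and other cells (−1.23 ± 0.25, 0.0323). Of the transcription factors, limma called 0 of 9 in the fat pad and 0 of 10 in the liver response, with 2 in each at an unadjusted p under 0.05. Between untreated sites, Prdm1 (−1.79 ± 0.32, limma adjusted p = 0.00454), Bhlhe40 (−0.76 ± 0.22, 0.0254) and Eomes were lower in liver and Id2 higher (1.496 ± 0.30, 0.00682), so that 3 of 10 were called lower and 1 higher, where 32.7% of all genes were called lower and 14.9% higher. Of 11 cytokine and receptor genes tested between untreated sites, 1 was called lower in liver, against 32.7% of all genes, and 0 higher. It was Il15, a cytokine that maintains NK and memory T cells (−1.17 ± 0.36, limma adjusted p = 0.0311).

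The genes whose pattern over the 16 libraries was most like each set shared no name among the 8 closest. By Pearson's r of log2(TPM + 1) among 13697 genes, the genes most like the mean of Gzma, Gzmb and Prf1 included Apol10b (r = 0.926), Il12rb1 (0.916), Pfkp (0.903) and Gbp2 (0.898). Il12rb1, with 19.6 TPM in treated liver, 20.5 TPM in untreated liver, 16.8 TPM in treated fat pad and 47.9 TPM in untreated fat pad on average, had r of 0.926 within the 10 liver libraries and 0.895 within the 6 fat pad libraries. The mean of the block was closest to Zfp609 (r = 0.9), Syt17 (0.883), Hsd11b2 (0.882), Katnal1 (0.881) and Ccni (0.876). For Zfp609 r was 0.82 within the liver and 0.745 within the fat pad. The libraries share site, treatment and hepatocyte content, the genes were picked as the highest of all compared, and no p is given.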

How the data were processed

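RNA was sequenced from 16 libraries in 4 groups. The liver table holds FPKM values deposited by the authors for all 10 liver libraries, with column sums of 511645 to 547765. The fat pad table holds TPM values deposited by the authors for all 6 fat pad libraries, each summing to 1000000. A table of the 8 untreated libraries, also deposited, holds TPM values shifted by an amount specific to gene and batch, with 2382 genes below 0, down to −313.3, and served only as a check. Units are not named in the tables and were inferred from sums and steps. Per the submitters' processing notes, fastp, StringTie and GRCm38/mm10 were involved. Whether counting used strand is not given in the sources used here, and depth is unknown.

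Gene names turned into dates (24 in the fat pad and 24 in the untreated table) were dropped, hyphens were restored in 65 and 66 names, and 1 name stood on more than 1 row of the liver table. Over the 17125 shared genes, both kinds of value were rescaled to TPM. Each comparison was fitted with limma 3.58.1 (R 4.3.3) on log2(TPM + 1), over genes with a mean of at least 1 TPM, with a mean-variance trend and no covariate, and p-values were adjusted by Benjamini-Hochberg over all genes tested. Called means an adjusted p under 0.05. Exact permutation tests of single genes were two-sided. The fits were tested on simulated data. Python 3.11.15, pandas 2.3.3, NumPy 2.4.6, SciPy 1.17.1, matplotlib 3.10.9 and Biopython 1.88 were used. The text names all 8 members, up to 4 tested genes of each pathway or marker list in order of limma p in a comparison, Gzmn as a gene of the locus, and genes of highest likeness, of which 1 is not reported here. The members and lists were chosen with earlier results of these data known. Alternatives changed the pseudocount, filter, scaling, trend, libraries and pairing.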

Additional observations from a re-analysis of the deposited data

Results flagged for a closer look

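The difference between the paclitaxel response in the liver and that in the fat pad passed the interaction test for 4 genes, with values of 3.96 for Gzmc, 3.82 for Gzmd, 3.56 for Gzmf and 5.16 for Gzmg on the log2(TPM + 1) scale. Gzmd, Gzmf and Gzmg averaged under 1 TPM in untreated liver and entered the test only through the other groups, so their number is not read as support. Gzmg had 0.337 TPM in untreated liver 4 and a listed value of 0 in the other 4 untreated liver libraries. That library was set apart from its group by being the 1 value above 0, so the zeros fix the result and nothing is read from it. Of 16 groups looked at in this way 1 stood out, where chance gives about 5%.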

How the results depend on the processing

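The count of genes called was 6422 between untreated sites, with 2123 to 9236 when 1 library was left out and 3553 with a replicate block. Between treated sites it was 1298, with 406 to 1505 when 1 library was left out and 4767 without treated liver 2 and 3. In the fat pad response it was 920, with 77 to 780 when 1 library was left out and 351 with the replicate block. In the liver response it was 432, with 104 to 3982 when 1 library was left out, 186 by the median of ratios, 241 by quantile normalization, 3068 with the replicate block, 154 with treated liver 2 and 3 averaged and 140 without both. For the difference of responses it was 414, with 91 to 2595 when 1 library was left out, 1426 with the block and 257 with treated liver 2 and 3 averaged. The cause of these shifts was not tested. The fits that average or leave out both libraries were chosen after seeing the data.

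Replicate numbers did not pair the libraries: same-numbered libraries had r of 0.132, −0.144 and −0.107 in the fat pad and −0.124, 0.651, 0.0551, 0.736 and 0.233 in the liver. With the replicate block the liver differences of Gzmd, Gzmf and Gzmg were called (limma adjusted p = 0.0302, 0.0322 and 0.035), as was the Gzme interaction (0.0488), and the Prf1 difference between untreated sites was not (0.156). Over all genes the block called 3068 in the liver response and 1426 in the interaction, against 432 and 414 in the main fits, so nothing is read from the gained calls.

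The block minus Gzma, Gzmb and Prf1 score ran from −2.61 to −1.995 in treated liver, −3.82 to −3.29 in untreated liver, −1.58 to −0.71 in treated fat pad and −0.68 to 0.74 in untreated fat pad when 1 library was left out. In untreated liver it was −3.45, against −5.59 with a pseudocount of 0.1 and −5.10 as a ratio of sums. Between treated sites the sign turned for Gzmb without treated fat pad 3 (−0.10, with 0.667 at most when 1 library was left out). For Prf1 it turned under quantile normalization (−0.0723), with the block (−0.10) and without 1 library (−0.14 to 0.551 over all such fits). For Gzmg it turned under the median of ratios (0.0174), without the hepatocyte marker genes (0.0289), with the block (0.48) and without 1 library (−0.421 to 0.45 over all such fits). The Gzma difference in the liver turned under the median of ratios (−0.0241), quantile normalization (−0.0167) and without untreated liver 4 (−0.02002 to 0.567 over all fits without 1 library). Calls over all genes split 916 higher and 382 lower between treated sites, and 699 and 669 under quantile normalization. They split 299 and 133 in the liver response, and 116 and 70 by the median of ratios, and 305 and 109 for the difference, and 187 and 134 by the median of ratios. Of 799 differences of single members under alternatives, 709 kept direction and side of the threshold, 52 lost a call, 22 gained a call and 16 reversed. The counts of genes called and the block score are not in this tally.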
